A study of Oryctolagus cuniculus with 34 samples.

Results

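COL1A1 (ENSOCUG00000012881), COL3A1 (ENSOCUG00000014988), LOX (ENSOCUG00000003313) and FN1 (ENSOCUG00000010104) were followed in the rabbit rotator cuff after tendon repair. They are 4 of the 23669 genes of the count table, chosen by name as genes of the fibrillar matrix, and all 4 were among the 12937 genes tested. Skeletally mature female New Zealand White rabbits, about 6 months old, had the left supraspinatus tendon cut and, after 8 weeks of tenotomy, repaired through an open approach. Muscle from the posterior lateral region of the left (repair) and right (control) supraspinatus was sequenced as RNA at 1 week (4 rabbits), 2 weeks (5 rabbits), 4 weeks (4 rabbits) and 8 weeks (4 rabbits) post-repair, giving 34 libraries. The right shoulder is described as unoperated in the study's methods and as a sham with a skin cut in the labels, and in every group it belongs to a rabbit whose other shoulder was operated on. The left library of rabbit 3 at 8 weeks was left out, as a repair library of that time was dropped at read quality control, so that 33 libraries and 16 complete pairs of shoulders were used.

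COL1A1 encodes the alpha 1 chain of type I collagen, the main fibril-forming collagen of tendon, bone and scar. COL3A1 encodes the chain of type III collagen, which forms thinner fibrils with type I collagen and is abundant in the connective tissue of muscle and in early wounds. FN1 encodes fibronectin, a glycoprotein that cells assemble into a network on which collagen is laid down, and LOX encodes lysyl oxidase, the copper enzyme that starts the cross-linking of collagen and elastin. In muscle these products come mainly from fibroblasts and related stromal cells, and their accumulation between the fibres is the basis of fibrosis.

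Values are given as CPM, counts scaled to library size after trimmed mean of M-values scaling (TMM, which corrects for differences in library composition). The total count ranged from 9220035 to 28395188 across the 33 libraries with a median of 12127768, and it was 13262913 or more in those of 1 and 8 weeks and 12332438 or fewer in those of 2 and 4 weeks, which also carry a different series of titles. Time and series can therefore not be told apart when 1 or 8 weeks is set against 2 or 4 weeks. Repair was compared with control within a time point or within a rabbit, and the repair effect was tested between times only within a series. The lowest expected count of any of the 4 genes was 18, for LOX in the control of rabbit 66 at 4 weeks. The 4 muscle fibre markers found of 19 listed, DES, TNNT3, ATP2A1 and PYGM, summed to 8042 CPM or more in every library. The labelled tissue was thus borne out by the markers found. A gene was called when its adjusted p-value in limma-voom was under 0.05 (Benjamini-Hochberg, across the 12937 genes).

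**Figure D1:**
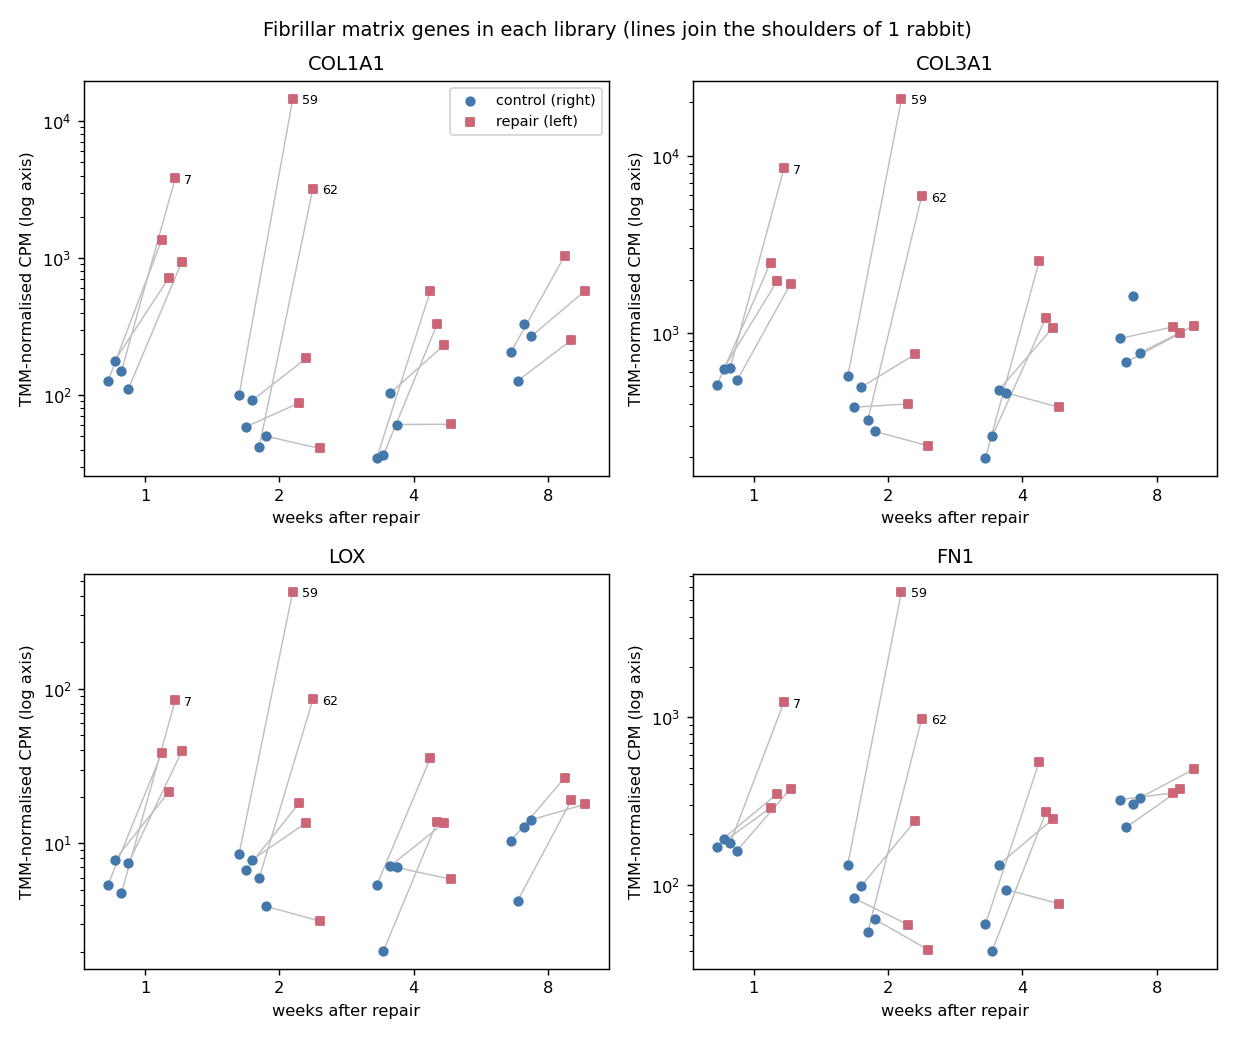
CPM of COL1A1, COL3A1, LOX and FN1 (log axis) in each of the 33 libraries by weeks after repair, circles for control (right) and squares for repair (left) shoulders, with lines joining the shoulders of 1 rabbit. At 1 week every repair library sat above every control, and at 2 weeks rabbits 59 and 62 stood far above rabbits 60, 61 and 64.

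At 1 week post-repair all 4 genes were higher in the repaired muscle of 4 of 4 rabbits, and for each of them the lowest repair library lay above the highest control. COL1A1 was at 1360, 711, 3827 and 943 CPM in the repaired muscle of rabbits 5, 6, 7 and 8, against 127, 178, 150 and 110 CPM in their controls. The left shoulder thus held 4 to 25.4 times the COL1A1 level of the right, with rabbit 7 the highest and rabbit 6 the lowest. COL3A1 was at 2493, 1968, 8465 and 1898 CPM in repair and at 506, 629, 636 and 540 CPM in control, and rabbit 7 again stood above the other repair libraries. Such a separation of all repair from all control libraries was seen for 16.1 percent of all genes tested at 1 week, and 27.6 percent were higher on the left in every rabbit. Since these are bulk samples, a larger number of matrix-producing cells and more RNA per cell cannot be told apart.

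LOX was at 38.5, 21.4, 84.0 and 39.5 CPM in the repaired muscle of the same rabbits at 1 week and at 5.42, 7.82, 4.79 and 7.43 CPM in the controls. The LOX level of rabbit 6, the lowest of the repair group, was still 2.73 times that of its own control. FN1 was at 288, 350, 1232 and 376 CPM in repair and at 169, 189, 178 and 160 CPM in control. Outside rabbit 7, whose FN1 ratio was 6.94, the repaired shoulder held 1.7 to 2.35 times the control level, the narrowest separation of the 4 genes at this time.

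In the fit across all genes 1 of the 4, LOX, passed the test at 1 week (log2FC 2.72, SE 0.93, adjusted p = 0.0488), where 6.81 percent of all genes were called as higher in repair. The estimates were 3.30 for COL1A1 (SE 1.20, adjusted p = 0.0606), 2.36 for COL3A1 (SE 0.90, adjusted p = 0.0715) and 1.40 for FN1 (SE 0.95, adjusted p = 0.306), beside a median log2FC of 0.05 over all genes. The LOX call was lost without any 1 of the 8 libraries of 1 week (log2FC 2.38 to 3.02, adjusted p 0.0591 to 0.129), and it was kept only without a 2-week repair library or the 4-week repair library of rabbit 63 or 68. COL1A1 was called when the 2-week repair library of rabbit 59, 60 or 64 was left out, and COL3A1 without that of rabbit 59 or 64. When the libraries of 1 week were fitted alone, so that the wide spread of 2 weeks did not enter, COL1A1 (log2FC 3.28, adjusted p = 0.00347), COL3A1 (2.36, 0.00616), LOX (adjusted p = 0.00519) and FN1 (1.40, 0.0263) were all called, where 12.5 percent of genes were called as higher. edgeR and DESeq2 called COL1A1, COL3A1 and LOX, beside 6.08 and 8.31 percent of all genes.

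Other cells' markers moved at 1 week too. The 6 fibroblast markers found of 11 listed (PDGFRA, PDGFRB, THY1, DDR2, DPT and CD34) summed to 256 to 418 CPM in repair and 130 to 157 CPM in control. None of the 6 passed in limma-voom (4 at an unadjusted p under 0.05, edgeR 0, DESeq2 2). With the rabbit as a block 4 of the 6 were called, beside 14.8 percent of all genes as higher. With an estimated correlation between shoulders 2 were called, beside 11.3 percent. The 3 tendon and cartilage markers found of 10 listed (MKX, ACAN and CILP) summed to 128 to 221 CPM against 30.7 to 35.8 CPM. Nearly all of this sum was CILP, a cartilage matrix protein, at 173 ± 37.1 CPM in repair and 33.6 ± 2.5 CPM in control (SD, n = 4). CILP passed in limma-voom (log2FC 2.33, adjusted p = 0.0057). MKX (mean 2.13 CPM in repair, adjusted p = 0.16) and ACAN (6.82 CPM, adjusted p = 0.137) did not. The 2 adipocyte markers found of 9 listed both passed, ADIPOQ with a log2FC of 1.51 (adjusted p = 0.0338) and LIPE with 1.90 (adjusted p = 0.0287). The muscle fibre markers summed to 8042 CPM in the repaired muscle of rabbit 6, against 27570 to 51308 CPM in the other repair libraries and 44491 to 57249 CPM in control. Rabbit 6, with the lowest sum of these fibre markers, had the lowest COL1A1 and LOX of the repair group. COL3A1 was lowest in rabbit 8 (1898 CPM) and FN1 in rabbit 5 (288 CPM). DES, 1 of the fibre markers, was at 4360 ± 1109 CPM in repair and 4244 ± 505 CPM in control (SD, n = 4). Of the 7 macrophage and leukocyte markers found of 14 listed 0 passed (1 at an unadjusted p under 0.05, edgeR and DESeq2 0, block 1, estimated correlation 0). Their sum was highest, at 115 CPM, in rabbit 7. The part of these cell types in the difference of the 4 genes was not tested.

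At 2 weeks the repaired muscles fell far apart. COL1A1 was at 14498 CPM in rabbit 59 and 3219 CPM in rabbit 62, but at 87.6, 185 and 40.7 CPM in rabbits 60, 61 and 64, with controls at 99.6, 41.6, 58.6, 91.6 and 50.1 CPM in the same order of rabbits. The ratio of left to right was 146 in rabbit 59 and 77.4 in rabbit 62, against 1.49, 2.02 and 0.812 in the other 3. COL3A1 followed with 20871 and 5904 CPM in rabbits 59 and 62, 398, 757 and 231 CPM in rabbits 60, 61 and 64, and controls of 569, 325, 382, 495 and 279 CPM. In rabbits 60, 61 and 64 the level of both collagen genes was within a factor of 2.02 of the control. The groups overlapped for all 4 genes, and such a separation was seen for 4.1 percent of all genes at 2 weeks.

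LOX reached 424 CPM in rabbit 59 and 85.4 CPM in rabbit 62, with 18.3, 13.6 and 3.15 CPM in rabbits 60, 61 and 64 and controls of 8.52, 5.96, 6.73, 7.86 and 3.92 CPM. LOX had the highest ratio of the 4 in rabbit 60 (2.72 times control), where FN1 was lower on the repaired side. FN1 was at 5639 and 978 CPM in rabbits 59 and 62, at 57.7, 240 and 40.8 CPM in rabbits 60, 61 and 64, and at 132, 52.4, 82.9, 98.2 and 62.3 CPM in the controls. Rabbit 64 was the only rabbit of this group in which all 4 genes were lower on the repaired side, at 0.654 to 0.828 times control. The highest repair library exceeded the lowest by 356 times for COL1A1, 138 times for FN1, 135 times for LOX and 90.2 times for COL3A1, and 0.386 percent of all genes tested spread by 100 times or more among these 5 libraries. A log2 ratio above 3 in both rabbits 59 and 62, which all 4 genes showed, was found for 1.21 percent of genes tested. In rabbit 59 the 4 genes took 6.26 percent of all counts of the repaired muscle and 0.079 percent of those of the control.

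COL1A1 was the 1 of the 4 genes called at 2 weeks (log2FC 2.80, SE 0.88, adjusted p = 0.0331), where 7.95 percent of all genes were called as higher in repair. COL3A1 (log2FC 1.85, SE 0.68, adjusted p = 0.0587), FN1 (1.84, SE 0.73, adjusted p = 0.0768) and LOX (2.30, SE 0.94, adjusted p = 0.0835) did not pass, beside a median of 0.06 over all genes. The COL1A1 call was lost without the repair library of rabbit 59 (log2FC 1.69, adjusted p = 0.177) or 62 (2.13, adjusted p = 0.114), and without the control of rabbit 60, 62 or 64 (adjusted p 0.0609 to 0.0668). Leaving out the low repair library of rabbit 64 instead gave calls for all 4 genes, with log2FC of 3.68 for COL1A1 (adjusted p = 0.00662), 2.51 for COL3A1 (0.011), 3.06 for LOX (0.0101) and 2.55 for FN1 (0.0132). Omitting the repair library of rabbit 60 or 61 also gave a call for COL3A1, and omitting that of rabbit 60 for FN1. edgeR and DESeq2, which compare mean levels of the groups rather than mean log values, called all 4 genes with log2FC of 5.72 for COL1A1, 3.78 for COL3A1, 4.05 for LOX and 4.02 for FN1 in edgeR (adjusted p 0.00121 to 0.00209), where 20 percent of all genes were called as higher by edgeR and 20.7 percent by DESeq2. With the libraries of 2 weeks fitted alone none of the 4 was called (adjusted p 0.221 to 0.294 in limma-voom), beside 0.0317 percent of all genes. In rabbits 60, 61 and 64 the ratio of left to right lay between 0.654 and 2.72 for the 4 genes, so the folds of these tools describe rabbits 59 and 62.

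**Figure D2:**
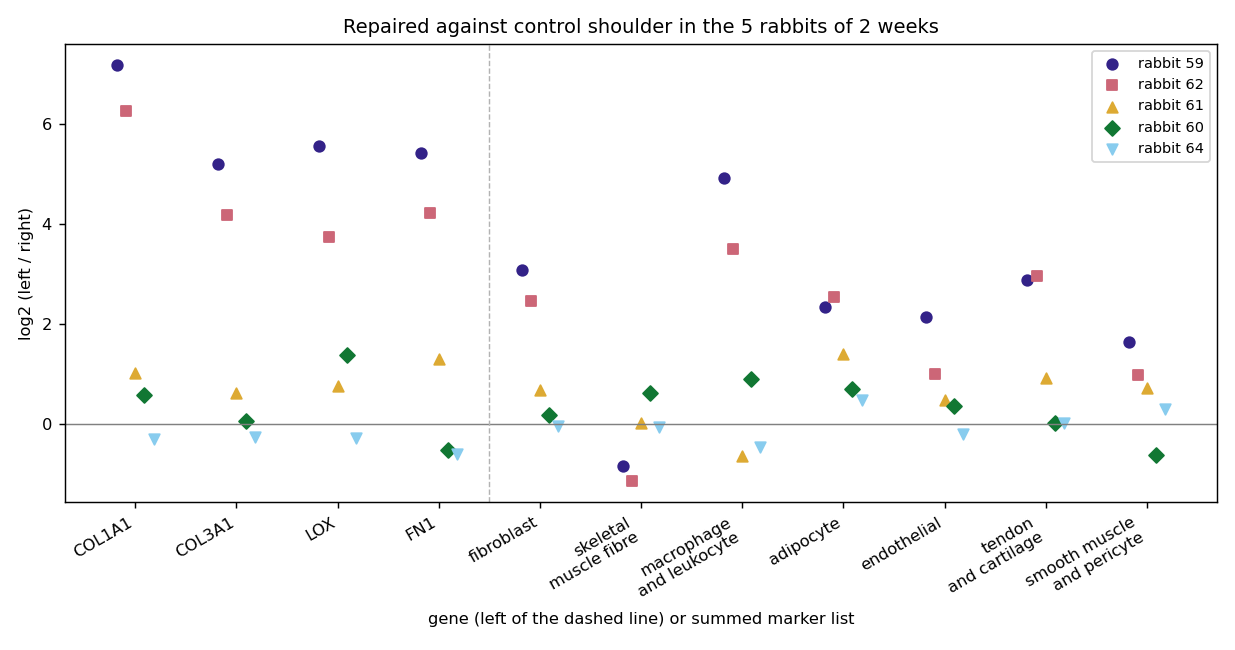
Log2 ratio of the repaired left to the control right shoulder in the 5 rabbits of 2 weeks, for the 4 genes and for the summed CPM of each marker list. Rabbits 59 and 62 were the highest for the 4 genes and for every list except muscle fibre, where they were the lowest at -0.84 and -1.15.

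The same 2 rabbits stood apart in the markers of other cell types. Many of these markers could be named only through co-expression modules that the study built from these repair libraries. Among them were CD163, ITGB2, CSF1R, C1QB, C1QC, THY1, DDR2, DPT, MKX, ACAN, CILP and the endothelial markers. The fibre markers were named through a table of all genes in order of identifier. How far this choice decides which markers go with the 4 genes, at any time point, was not tested. Macrophage and leukocyte markers (CD163, MRC1, ITGAM, ITGB2, CSF1R, C1QB and C1QC) summed to 484 CPM in the repaired muscle of rabbit 59 and 123 CPM in that of rabbit 62, against 22.2, 11.2 and 7.6 CPM in rabbits 60, 61 and 64 and 10.5 to 17.5 CPM in the controls. Fibroblast markers summed to 876 and 418 CPM in rabbits 59 and 62, against 89.9, 165 and 78.1 CPM in the other 3 and 76.1 to 104 CPM in the controls. The tendon and cartilage markers summed to 361 and 278 CPM, against 43.5, 95.8 and 24.6 CPM in rabbits 60, 61 and 64 and 24.2 to 51.1 CPM in the controls. CILP alone was at 153 and 251 CPM in rabbits 59 and 62, and at 23.9 to 50.8 CPM in the controls. ACAN, the large proteoglycan of cartilage, was at 198 CPM in rabbit 59 and 18.5 CPM in rabbit 62, and at 1.26 CPM or less in the other repair libraries and in the controls, with the control of rabbit 62 at 0. Muscle fibre markers went the other way, at 10594 and 16551 CPM in rabbits 59 and 62 against 35139 to 50851 CPM in the other repair libraries, although the control of rabbit 59 was itself the lowest control at 18946 CPM. DES, the intermediate filament of muscle, was the only fibre marker of 4 that passed (log2FC -0.84, adjusted p = 0.0219). The part of these cell types, and of tendon tissue in the piece taken, in the difference of the 4 genes was not tested.

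At 4 weeks no difference passed the test, and the ratio of left to right varied among the rabbits. COL1A1 was at 576, 329, 231 and 61.2 CPM in the repaired muscle of rabbits 63, 66, 67 and 68, against 34.6, 36.4, 103 and 60.9 CPM in control. The ratios were 16.6 in rabbit 63 and 9.02, 2.25 and 1 in rabbits 66, 67 and 68, the last with nearly equal shoulders. COL3A1 was at 2537, 1223, 1070 and 381 CPM in repair and at 197, 261, 477 and 461 CPM in control. LOX was at 35.7, 13.8, 13.5 and 5.87 CPM against 5.35, 2.02, 7.14 and 6.99 CPM, and FN1 at 543, 271, 246 and 77.0 CPM against 58.0, 40.3, 132 and 93.7 CPM. For COL3A1, LOX and FN1 rabbit 68 was slightly lower on the repaired side, and repair and control overlapped for all 4 genes, where 5.19 percent of all genes did not overlap in this direction. No repair effect passed for the 4 genes (log2FC 2.10 for COL1A1, 1.70 for COL3A1, 1.65 for FN1 and 1.51 for LOX, SE 0.72 to 1.20, adjusted p 0.247 to 0.546 in limma-voom), where 0.0773 percent of all genes were called as higher. At an unadjusted p under 0.05 there were 3 of the 4, all but LOX, beside 15.9 percent of all genes, while edgeR and DESeq2 called none of the 4 and 1.71 and 3.17 percent of all genes as higher. The summed markers of macrophages and of tendon followed the same order of rabbits, with log2 ratios of left to right of 2.94, 1.50, 0.53 and -1.30 for macrophages and leukocytes and 2.85, 1.64, 0.76 and 0.51 for tendon and cartilage in rabbits 63, 66, 67 and 68. The tendon and cartilage sum was nearly all CILP (mean 124 CPM in repair, against 0.581 CPM for MKX and 0.566 CPM for ACAN). No other marker list followed this order. The 3 endothelial markers found of 9 listed ran in the opposite order (-0.15, 0.10, 0.28 and 0.58), and fibroblast markers had 1.51, 1.59, 0.73 and 0.28. The adipocyte markers summed to 307 to 586 CPM in repair and 74.8 to 176 CPM in control. In limma-voom 0 of 2 passed (2 at an unadjusted p under 0.05), but 2 of 2 did in edgeR, in DESeq2, with the block and with the estimated correlation. The block called 1.82 percent of all genes as higher at this time and the estimated correlation 0.734 percent. The part of these cells in the values of the 4 genes was not tested.

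At 8 weeks no difference passed the test, although all 4 genes were higher on the repaired side in the 3 rabbits with both shoulders. COL1A1 was at 1039, 252 and 575 CPM in the repaired muscle of rabbits 1, 2 and 4 and at 206, 127, 329 and 268 CPM in the controls of rabbits 1, 2, 3 and 4. COL3A1 was at 1083, 996 and 1099 CPM in repair, within 1.16 to 1.45 times the rabbits' own controls (932, 686 and 773 CPM), and below the control of rabbit 3 at 1621 CPM. LOX was at 26.6, 19.1 and 17.9 CPM against 10.4, 4.27, 12.8 and 14.2 CPM, and FN1 at 354, 371 and 490 CPM against 323, 221, 303 and 331 CPM. LOX and FN1 did not overlap between the groups, as did 4.24 percent of all genes in this direction, although for FN1 the lowest repair library and the highest control were only 354 and 331 CPM. None of the 4 passed in limma-voom (log2FC 1.32 for COL1A1, 1.10 for LOX, 0.45 for FN1 and 0.16 for COL3A1, SE 0.90 to 1.19, adjusted p = 0.999), 0 had an unadjusted p under 0.05 (3.07 percent of all genes), and edgeR and DESeq2 called 0. Over all genes limma-voom and edgeR each called 0.00773 percent as higher at this time and DESeq2 0.0232 percent.

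**Figure D3:**
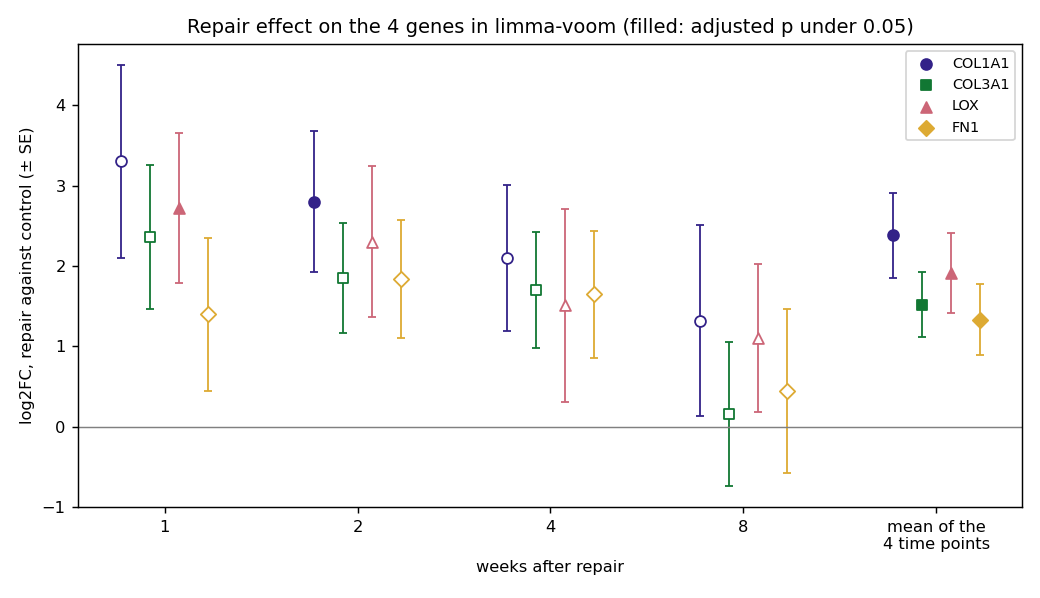
Log2FC of repair against control with its standard error from limma-voom for the 4 genes at each time point and for the mean of the 4 time points, with filled symbols where the adjusted p was under 0.05. LOX at 1 week, COL1A1 at 2 weeks and all 4 genes in the mean were called.

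Averaged over the 4 time points, all 4 genes passed, where 22.4 percent of all genes were called as higher in repair. The mean log2FC was 2.38 for COL1A1 (SE 0.53, adjusted p = 0.00131), 1.91 for LOX (SE 0.50, adjusted p = 0.00444), 1.52 for COL3A1 (SE 0.40, adjusted p = 0.00461) and 1.33 for FN1 (SE 0.44, adjusted p = 0.0184). All 4 calls held under every setting tried and without any single library, and the share of genes called as higher was 25.7 percent in edgeR, 26.1 percent in DESeq2, 26.5 percent with the rabbit as a block and 25.6 percent with an estimated correlation between shoulders. The difference of the repair effect between 1 and 8 weeks was 1.98 for COL1A1, 2.20 for COL3A1, 1.63 for LOX and 0.95 for FN1, and none passed (adjusted p 0.827 to 0.884 in limma-voom). Between 2 and 4 weeks it was 0.70, 0.15, 0.79 and 0.20 in the same order (adjusted p = 1). Of all genes 0 passed in limma-voom with a larger effect at the earlier time, in either comparison. At an unadjusted p under 0.05, counted in both directions, there were 683 and 359 (5.28 and 2.77 percent). edgeR called 0 and 0 with a larger effect at the earlier time, and DESeq2 2 (0.0155 percent) and 0. A decline of the effect with time was thus not shown for these genes.

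Within rabbits COL1A1 was higher in the repaired shoulder of 15 of 16, with a mean log2 ratio of left to right (0.5 CPM added to both sides) of 2.54 ± 2.17 (SD, n = 16, exact sign-flip permutation test, two-sided, p = 9.16e-05). LOX was higher in 14 of 16 (1.94 ± 1.59, exact p = 0.000153), COL3A1 in 14 of 16 (1.71 ± 1.71, exact p = 0.000397) and FN1 in 13 of 16 (1.47 ± 1.74, exact p = 0.00156). A rise in 14 or more of 16 rabbits was seen for 13 percent of all genes tested, and in 13 or more for 19.9 percent. In the series of 1 and 8 weeks the 4 genes were higher in 7 of 7 rabbits (mean log2 ratio 2.51 for COL1A1, 1.54 for COL3A1, 2.02 for LOX and 1.02 for FN1), each with the smallest exact p that 7 pairs allow, 0.0156. In the series of 2 and 4 weeks (n = 9) the means were 2.56 (exact p = 0.0117), 1.84 (0.0273), 1.88 (0.0156) and 1.82 (0.043). Without rabbits 59 and 62, left out after their values were seen, the means over 14 rabbits were 1.95 for COL1A1 (exact p = 0.000366), 1.28 for COL3A1 (0.00159), 1.55 for LOX (0.00061) and 0.99 for FN1 (0.00623). Within a single time point 3 to 5 pairs cannot give an exact p under 0.0625.

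Matching the shoulders of a rabbit in the fit across genes changed some calls. With the rabbit as a block COL1A1 was called at 1 week (log2FC 3.21, adjusted p = 0.043; 14.8 percent of genes called as higher) and LOX at 2 weeks (3.14, adjusted p = 0.00431; 19.2 percent). With the correlation between the shoulders estimated instead, COL1A1 (3.29, adjusted p = 0.0337) and COL3A1 (2.36, adjusted p = 0.0403) were called at 1 week, and COL3A1 (1.86, adjusted p = 0.0322) and FN1 (1.85, adjusted p = 0.0442) at 2 weeks, where 11.3 and 13 percent of genes were called as higher. The forms of pairing differed at 2 weeks, since LOX was not called with the estimated correlation (adjusted p = 0.0523), and COL3A1 and FN1 were not called with the block (adjusted p = 0.11 and 0.107). At 1 week COL3A1 was not called with the block (adjusted p = 0.0572).

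The levels themselves also differed between the series. Control muscle held 110 to 329 CPM of COL1A1 at 1 and 8 weeks and 34.6 to 103 CPM at 2 and 4 weeks, without overlap, and FN1 did the same with 160 to 331 CPM and 40.3 to 132 CPM. The share of all genes that separate in this way, between series or between the time points below, is not given here. These separations are therefore a description of the levels and are not read as particular to these genes. COL3A1 (506 to 1621 against 197 to 569 CPM) and LOX (4.27 to 14.2 against 2.02 to 8.52 CPM) overlapped between the series. By median control level the order for COL1A1 was 8 weeks (237 CPM), 1 week (139), 2 weeks (58.6) and 4 weeks (48.7), and neighbours overlapped except 1 and 2 weeks. COL3A1 had the same order (853, 584, 382 and 361 CPM), with only 8 and 1 weeks apart, and FN1 too (313, 173, 82.9 and 75.8 CPM), with 8 and 1 as well as 1 and 2 weeks apart. The LOX medians in control were 11.6 CPM at 8 weeks, 6.73 at 2, 6.42 at 1 and 6.17 at 4, and all neighbours overlapped. In repaired muscle the medians of COL1A1 were 1151, 575, 280 and 185 CPM at 1, 8, 4 and 2 weeks, and those of COL3A1 were 2231, 1146, 1083 and 757 CPM at 1, 4, 8 and 2 weeks. For LOX they were 39, 19.1, 18.3 and 13.6 CPM at 1, 8, 2 and 4 weeks, and for FN1 371, 363, 258 and 240 CPM at 8, 1, 4 and 2 weeks. All neighbours in these 4 repair orders overlapped.

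**Figure D4:**
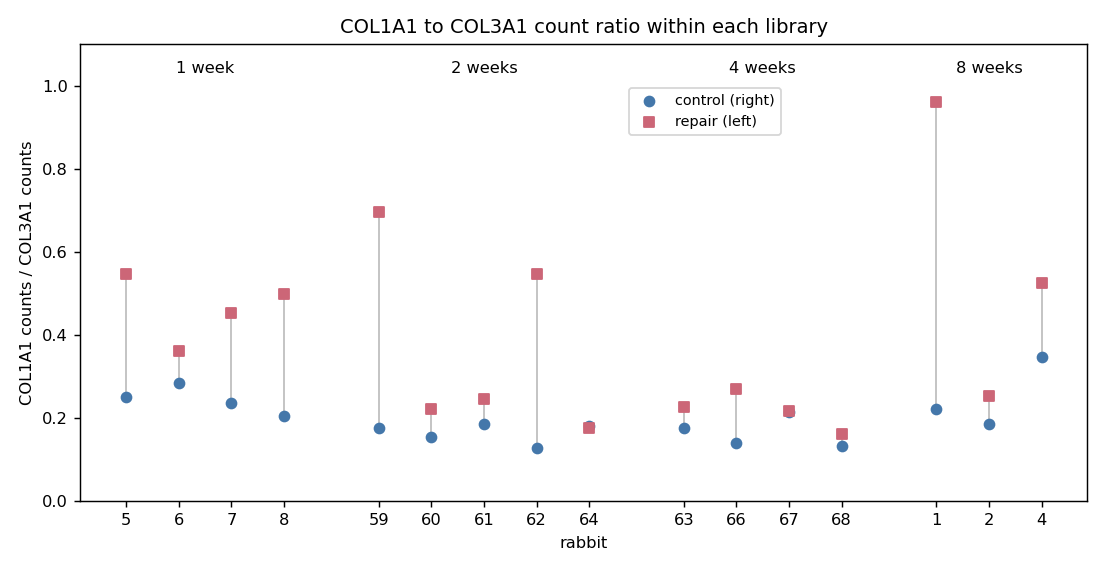
Ratio of COL1A1 counts to COL3A1 counts in the repaired (squares) and control (circles) shoulder of each of the 16 rabbits, grouped by weeks after repair. The ratio hardly differed between shoulders in rabbits 64 (0.176 in repair, 0.179 in control) and 67 (0.216 and 0.215) and was higher in repair in the other 14, with the widest gaps in rabbits 1, 59 and 62.

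The balance of the 2 collagen genes shifted towards COL1A1. The ratio of COL1A1 to COL3A1 counts within a library, which does not depend on the scaling and is read only between libraries because it is not corrected for gene length, had medians of 0.244, 0.175, 0.157 and 0.212 in control and 0.474, 0.244, 0.221 and 0.524 in repair at 1, 2, 4 and 8 weeks. At 1 week the ratio was 0.361 to 0.546 in repair and 0.203 to 0.283 in control, without overlap. At 2 weeks it was 0.695 and 0.545 in the repaired muscle of rabbits 59 and 62 and 0.22, 0.244 and 0.176 in rabbits 60, 61 and 64, against 0.128 to 0.185 in control. At 8 weeks the ratio in rabbit 1 was 0.96 on the left and 0.221 on the right, the largest shift of all pairs, in a shoulder whose COL3A1 level was only 1.16 times control. With 0.5 CPM added as above, the rise of COL1A1 exceeded that of COL3A1 by 0.83 ± 0.71 on the log2 scale (SD, n = 16, higher in 14 of 16 rabbits, exact sign-flip permutation p = 0.000122, or 0.000366 after Benjamini-Hochberg adjustment over the 6 pairs of genes). It was 0.98 in the series of 1 and 8 weeks (7 of 7 rabbits, exact p = 0.0156) and 0.72 in that of 2 and 4 weeks (7 of 9, exact p = 0.0156), and 0.66 over 14 rabbits without 59 and 62 (exact p = 0.000488).

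Of the other 5 pairs, COL1A1 rose more than FN1 by 1.08 ± 0.88 (15 of 16 rabbits, exact p = 0.000122, adjusted 0.000366) and more than LOX by 0.60 ± 0.86 (13 of 16, exact p = 0.0122, adjusted 0.0244). The difference between LOX and FN1 was 0.47 ± 0.85 (exact p = 0.0423, adjusted 0.0634), that between COL3A1 and FN1 0.24 ± 0.56 (exact p = 0.106, adjusted 0.127) and that between COL3A1 and LOX -0.23 ± 0.66 (exact p = 0.181, adjusted 0.181). At 1 week LOX exceeded FN1 by 0.51 to 1.95 in every rabbit, and at 4 weeks the difference lay between -0.59 and 0.05. These pairs were compared after the values of the 4 genes had been seen.

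Across rabbits the 4 ratios went together. Over the 16 rabbits Pearson's r between the log2 ratios was 0.961 for COL1A1 and COL3A1, 0.943 for COL1A1 and LOX, 0.923 for COL1A1 and FN1, 0.922 for COL3A1 and LOX, 0.947 for COL3A1 and FN1 and 0.872 for LOX and FN1, with Spearman's rho between 0.774 and 0.944. The permutation p of r was 1e-05, the smallest that 100000 permutations can give, for 5 of the 6 pairs and 2e-05 for LOX and FN1, adjusted 1.2e-05 and 2e-05, and the largest p of rho was 0.00067. Without the 2 rabbits farthest from the median r was 0.779 to 0.93, in the series of 1 and 8 weeks 0.743 to 0.891 and in that of 2 and 4 weeks 0.94 to 0.985. COL1A1, COL3A1 and FN1 belong to a co-expression module that the study built from these repair libraries, so their correlations are not independent of that module. Of the 1794 named module entries at hand 1757 were in this same module, so sharing it says little about these genes. LOX was not among the entries held, and its r with the others was 0.872 to 0.943. The 4 genes were chosen by name, and their going together is given as a description.

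The genes whose log2 ratios were most like each of the 4 over the 16 rabbits were sought among the 2733 genes that could be named, of 9642 with an average log2 CPM of 1 or more. Between 8 and 14 of the 20 closest genes could be named, so other close genes are not given here. For COL1A1 they were COL1A2, the other chain of type I collagen (r = 0.996), FKBP10, a folding factor of procollagen (0.986), the gelatinase MMP2 (0.971), the collagen-binding SPARC (0.97) and SCARA3 (0.967). For COL3A1 they were COL6A2 (0.971) and COL5A1 (0.97), chains of microfibrillar and fibrillar collagens, OLFML2B (0.969), FKBP10 (0.966) and the leukocyte surface protein CD48 (0.966). LOX was most like the collagen-degrading cathepsin CTSK (0.956), FKBP10 (0.955), the actin-capping CAPG (0.95), the plasminogen activator PLAU (0.948) and COL1A2 (0.945). FN1 was most like FSTL1 (0.965), the microfibril genes MFAP5 (0.964) and FBN1 (0.963), PTGFRN (0.961) and the proteoglycan VCAN (0.956). The median r with each of the 4 over all compared genes was between -0.129 and -0.125, and without rabbits 59 and 62 each of these named genes had an r of 0.904 or more. COL1A2 was the closest of all 9642 genes to COL1A1, and its log2 ratios ran from -0.43 to 6.69.

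**Figure D5:**
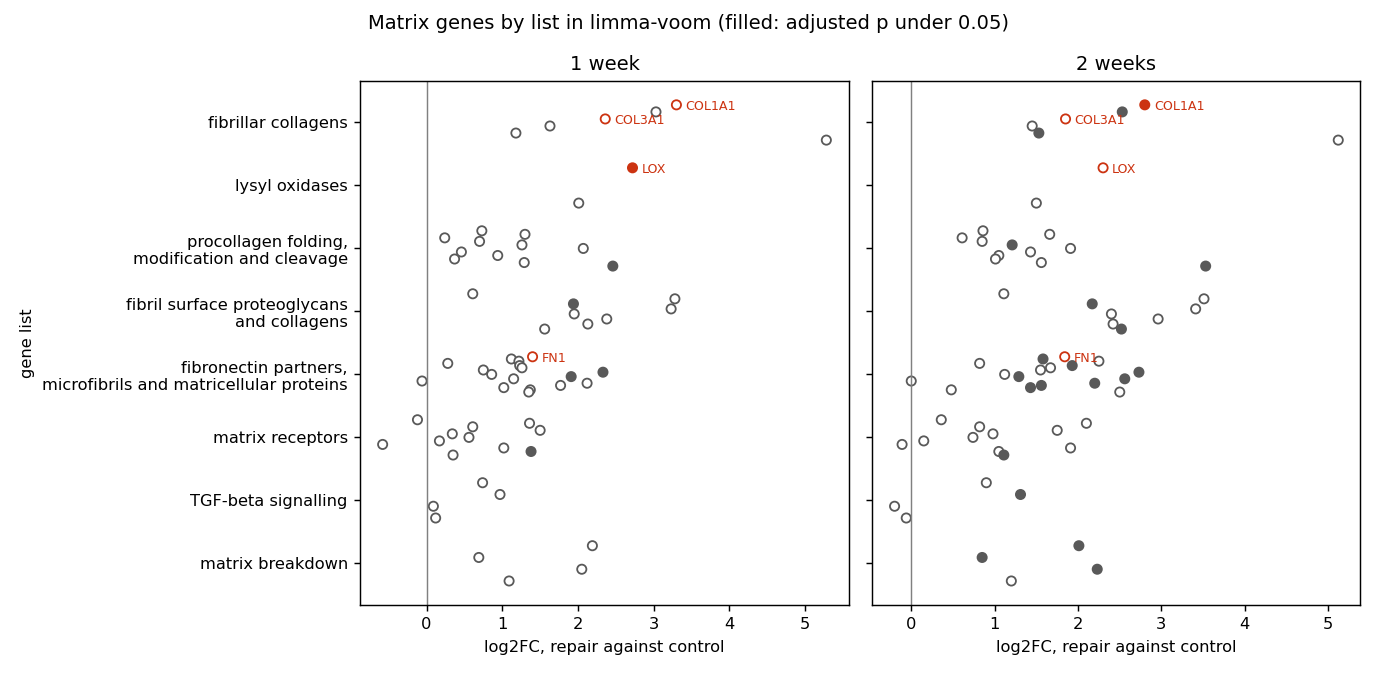
Log2FC of repair against control at 1 and 2 weeks for each of the 63 matrix genes tested, by list (members of a list spread vertically for legibility), filled where the adjusted p was under 0.05 and red for COL1A1, COL3A1, LOX and FN1. Nearly all points lie to the right of 0, and more of them are filled at 2 weeks.

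Of 139 genes in 8 matrix lists, 63 could be matched to an identifier, and all 63 were tested. At 1 week 6 of 63 (9.52 percent) rose and 0 fell, near the 6.81 percent of all genes called as higher, and 60 of 63 had a log2FC above 0 (median 1.26). At 2 weeks 20 of 63 (31.7 percent) rose and 0 fell (median 1.55), against 7.95 percent of all genes. At 4 and 8 weeks none passed in limma-voom (medians 0.94 and 0.37), beside 0.0773 and 0.00773 percent of all genes. At an unadjusted p under 0.05 there were 14 and 6 of 63, beside 15.9 and 3.07 percent. edgeR called 3 and 0 of 63, beside 1.71 and 0.00773 percent of all genes as higher. DESeq2 called 6 and 0, beside 3.17 and 0.0232 percent. In the mean over time points 47 of 63 (74.6 percent) rose, beside 22.4 percent of all genes. With the rabbit as a block 32 of 63 rose at 1 week and 46 of 63 at 2 weeks, beside 14.8 and 19.2 percent of all genes, and with the estimated correlation 19 and 33 of 63, beside 11.3 and 13 percent. Of the 63, 44 were identified only through the co-expression modules, where 40.9 percent rose at 2 weeks, and 19 through the first part of a table of all genes in order of identifier, where 10.5 percent rose (medians 1.63 and 1.43). Among all genes named by these 2 routes the shares were 17 and 9.18 percent.

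In the counts by list below, the shares of all genes called as higher in limma-voom remain 6.81 percent at 1 week and 7.95 percent at 2 weeks. For the other fits the shares at 1 and 2 weeks are 6.08 and 20 percent in edgeR and 8.31 and 20.7 percent in DESeq2. They are 14.8 and 19.2 percent with the block and 11.3 and 13 percent with the estimated correlation. Among the fibrillar collagens 6 of 11 were matched to an identifier. At 1 week 0 of 6 passed in limma-voom (median log2FC 2.70), with 6 at an unadjusted p under 0.05. edgeR called 4, DESeq2 5, the block 4 and the estimated correlation 3. At 2 weeks 3 of 6 rose (median 2.19), namely COL1A1, COL1A2 and COL5A3, and these other fits called 6, 6, 4 and 4. COL1A2 went from 241 ± 40.7 CPM in control to 2319 ± 1772 CPM in repair at 1 week (SD, n = 4, log2FC 3.03, adjusted p = 0.0546) and had a log2FC of 2.53 at 2 weeks (adjusted p = 0.0319). COL5A1, which is built into type I fibrils and limits their width, had 1.63 at 1 week (adjusted p = 0.113) and 1.45 at 2 weeks (adjusted p = 0.142). Of the lysyl oxidases 2 of 5 were matched, and LOXL1, which acts mainly on elastin, had 2.01 (adjusted p = 0.0957) and 1.50 (adjusted p = 0.228).

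The genes that fold, modify and trim procollagen rose in 1 of 11 cases at 1 week and 2 of 11 at 2 weeks (medians 0.94 and 1.21), a share at 1 week near that of all genes. At 2 weeks edgeR and DESeq2 called 11 of 11, the block 10 and the estimated correlation 5. ADAMTS3, a procollagen N-proteinase of low level, rose from 0.223 ± 0.0383 to 1.51 ± 0.979 CPM at 1 week (SD, n = 4, log2FC 2.46, adjusted p = 0.0382) and had a log2FC of 3.53 at 2 weeks (adjusted p = 0.0268), when PPIB, a prolyl isomerase of the endoplasmic reticulum, also rose (1.21, adjusted p = 0.0485). SERPINH1, the collagen chaperone, had 0.73 and 0.86 (adjusted p = 0.19 and 0.0971), and PLOD2, a lysyl hydroxylase for cross-links, 1.3 and 1.66 (adjusted p = 0.176 and 0.0864). On the fibril surface 1 of 8 genes rose at 1 week and 2 of 8 at 2 weeks (medians 2.04 and 2.47). The other fits called 2 (edgeR), 7 (DESeq2), 7 (block) and 4 (estimated correlation) of 8 at 1 week, and 8, 8, 7 and 6 at 2 weeks. OGN, a small leucine-rich proteoglycan, rose at both times (1.94, adjusted p = 0.0145, and 2.17, adjusted p = 0.00494), and DPT, which binds decorin and collagen, at 2 weeks (2.52, adjusted p = 0.0185). DCN, decorin itself, had 0.61 (adjusted p = 0.428) and 1.11 (adjusted p = 0.0592).

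Around FN1, 2 of 17 fibronectin partners, microfibril and matricellular genes rose at 1 week and 8 of 17 at 2 weeks (medians 1.23 and 1.58), and 2 of 17 is close to the share of all genes. In the same order the other fits called 3, 4, 8 and 4 of 17 at 1 week and 15, 15, 11 and 10 at 2 weeks. MFAP4, an elastic fibre protein, rose at both times (2.33, adjusted p = 0.0219, and 2.73, adjusted p = 0.0162), LTBP1, which ties latent TGF-beta to the matrix, also did (1.91, adjusted p = 0.0134, and 1.29, adjusted p = 0.0445), and LTBP2 rose at 2 weeks (2.56, adjusted p = 0.0499). SPARC had 1.77 (adjusted p = 0.072) and rose at 2 weeks (1.56, adjusted p = 0.0437), while CCN2, a connective tissue growth factor, had 1.37 (adjusted p = 0.119) and 0.48 (adjusted p = 0.531). Of the matrix receptors 1 of 11 rose at each time (medians 0.56 and 0.98), a share near that of all genes, and the other fits called 0, 1, 3 and 1 of 11 at 1 week and 6, 7, 6 and 4 at 2 weeks. They were the hyaluronan receptor CD44 at 1 week (1.38, adjusted p = 0.0493) and the heparan sulfate proteoglycan SDC2 at 2 weeks (1.11, adjusted p = 0.0143). ITGB1, the beta chain shared by collagen and fibronectin integrins, had only 0.17 and 0.15 (adjusted p = 0.541 and 0.488), and DDR2, a collagen receptor kinase, 1.02 and 1.91 (adjusted p = 0.145 and 0.0759).

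Of 4 TGF-beta genes matched 0 passed at 1 week in limma-voom (1 at an unadjusted p under 0.05, edgeR 0, DESeq2 1, block 1, estimated correlation 1). The receptor TGFBR2 rose at 2 weeks (1.31, adjusted p = 0.0138), beside 0.74 and 0.90 at 1 and 2 weeks for the ligand TGFB1 (adjusted p = 0.156 and 0.115). Of the genes of matrix breakdown 0 of 4 passed at 1 week in limma-voom (3 at an unadjusted p under 0.05, edgeR 0, DESeq2 2, block 3, estimated correlation 2). At 2 weeks 3 of 4 rose: CTSK (2.23, adjusted p = 0.0315), MMP2 (2.01, adjusted p = 0.0343) and the inhibitor TIMP3 (0.85, adjusted p = 0.0316). Among the markers of other cells at 2 weeks PDGFRA, the receptor that marks fibro-adipogenic cells (1.68, adjusted p = 0.0467), ADIPOQ (1.43, adjusted p = 0.0149), the endothelial VWF (0.84, adjusted p = 0.0418) and MCAM of vessel walls (1.09, adjusted p = 0.0159) rose, and MCAM had risen at 1 week (0.90, adjusted p = 0.0368). None of the 7 macrophage and leukocyte markers passed at 2 weeks in limma-voom (1 at an unadjusted p under 0.05), nor did any with the estimated correlation, while the block called 6 of 7 and edgeR and DESeq2 7 of 7, beside 19.2, 20 and 20.7 percent of all genes.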

How the data were processed

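RNA was measured by bulk RNA-seq in 34 libraries from 17 rabbits (time codes 81, 82, 84 and 88 in the labels, read as 8 weeks of tenotomy followed by 1, 2, 4 and 8 weeks). Reads had been aligned to Ensembl OryCun2.0 (STAR), and the authors deposited expected counts per gene (RSEM), not scaled. The authors' supplementary tables of comparisons were used only to pair rabbit identifiers with symbols of human orthologs, which gave symbols for 3310 identifiers. Their fold changes and p-values were not used, and neither were the histology measures.

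Counts were scaled by TMM, and genes with a CPM over 1 in at least 1 of 33 libraries were kept, leaving 12937. In R 4.3.3, with edgeR 4.0.16 and limma 3.58.1, limma-voom was fitted with a coefficient for each of the 8 groups of time and treatment, as in the study's methods, and tests were two-sided. edgeR's quasi-likelihood test and DESeq2 1.42.0 were run on rounded counts. Other alternatives were DESeq2's size factors, a filter of 5 libraries or none, all 34 libraries, each time point alone, rabbit as a block, and each library left out in turn. The scripts were tested on simulated data. Within-rabbit log2 ratios of TMM CPM, with 0.5 added, were tested by exact sign-flip permutation, and correlations with 100000 permutations (Python 3.11.15, NumPy 2.4.6, SciPy 1.17.1, pandas 2.3.3, matplotlib 3.10.9).

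The 4 genes and the 15 gene lists were chosen with earlier results of these data known. Genes named from the lists were the 2 called genes with the largest absolute log2FC in each list at 1 week and at 2 weeks, together with COL1A2, COL5A1, LOXL1, SERPINH1, PLOD2, DCN, SPARC, CCN2, TGFB1, DDR2, ITGB1, MMP2 and TIMP3 whatever their values. For likeness, the 5 named genes with the highest Pearson r to each of the 4 were taken. Replicates are rabbits, and the exact tests of within-rabbit ratios take the rabbit as the unit. The main limma-voom fit treated the shoulders of a rabbit as independent. Its p-values therefore measure the spread among libraries within the 8 groups, and the fits with the rabbit as a block or an estimated correlation match the shoulders. The labels tie both shoulders to a rabbit by its number. The deviations of the shoulders from their group means correlated with r between -0.0284 and 0.545 (median 0.353), and 14 of 16 repaired shoulders were closest to their own control. Total counts were 9220035 to 28395188 per library.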

Additional observations from a re-analysis of the deposited data

Results flagged for a closer look

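In the 2-week repair group the library of rabbit 59 stood apart from the other 4 for each of the 4 genes, at 14498 CPM for COL1A1, 20871 CPM for COL3A1, 424 CPM for LOX and 5639 CPM for FN1. Its gap to the next library was 0.78, 0.725, 0.805 and 0.833 of the group's range, above Dixon's critical value of 0.71 for 5 samples. In the 1-week repair group the library of rabbit 7 stood apart for COL3A1, at 8465 CPM, and for FN1, at 1232 CPM, with gaps of 0.909 and 0.906 of the range against a critical value of 0.829 for 4 samples. These are 6 of the 28 groups examined, all of them repair groups and 0 of them control groups, and they come from only 2 libraries. Chance marks about 1 group in 20 when groups are independent and the values normally distributed, which does not hold for genes that go together and for CPM on a linear scale, so the number of marked groups is given as a description.

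The left library of rabbit 3 at 8 weeks, which enters no comparison, held 330 CPM of COL1A1 when all 34 libraries were scaled together, just above the highest control of that time at 323 CPM, which is the right shoulder of the same rabbit. The same library was below the other repair libraries for COL3A1 (713 against 968 to 1056 CPM), LOX (6.31 against 17.2 to 25.8 CPM) and FN1 (89.2 against 344 to 471 CPM), and for FN1 it was also below every control (216 to 321 CPM).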

How the results depend on the processing

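The mean repair effects kept their direction and call for all 4 genes under the 9 other settings and the 33 single-library omissions, as did the within-rabbit means under their 4 settings and 16 omissions. At 1 week edgeR called COL1A1 (3.60) and COL3A1 (2.68), DESeq2 did too (3.60 and 2.68), the time point alone called COL1A1 (3.28), COL3A1 (2.36) and FN1 (1.40), and LOX lost its call without a filter (2.70, adjusted p = 0.0522) and with all 34 libraries (2.71, adjusted p = 0.0874). At 2 weeks edgeR called COL3A1 (3.78), LOX (4.05) and FN1 (4.02) and DESeq2 as well (3.79, 4.06 and 4.04), while COL1A1 lost its call with all 34 libraries (2.87, adjusted p = 0.0694) and with the time point alone (2.77, adjusted p = 0.221). With all 34 libraries FN1 at 8 weeks turned to -0.14. Without single libraries the log2FC ran at 1 week from 2.83 to 3.59 for COL1A1, 1.88 to 2.58 for COL3A1 and 2.38 to 3.02 for LOX. At 2 weeks it ran from 1.69 to 3.68 for COL1A1, 0.98 to 2.51 for COL3A1, 1.38 to 3.06 for LOX and 0.90 to 2.55 for FN1. COL3A1 at 8 weeks ran from -0.0028 (without the control of rabbit 2) to 0.42. The difference between 2 and 4 weeks ran from -0.40 to 1.58 for COL1A1, -0.73 to 0.81 for COL3A1, -0.13 to 1.55 for LOX and -0.74 to 0.91 for FN1. The cause was not tested.

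With the rabbit as a replicate block COL1A1 at 1 week (3.21) and LOX at 2 weeks (3.14) were called, and the difference between 2 and 4 weeks turned for COL3A1 (-0.29) and FN1 (-0.16). With the correlation between the shoulders of a pair estimated (0.174), COL1A1 (3.29) and COL3A1 (2.36) were called at 1 week and COL3A1 (1.86) and FN1 (1.85) at 2 weeks, and with the 5-library filter added (0.186) so were the same 4 (3.32, 2.38, 1.91 and 1.90). The block changed no other call of the 4 genes. Of the 63 matrix genes, 6 rose at 1 week in limma-voom, 11 in edgeR, 25 in DESeq2, 32 with the block and 19 with the estimated correlation, and at 2 weeks these counts were 20, 54, 55, 46 and 33. In the same order the shares of all genes called as higher were 6.81, 6.08, 8.31, 14.8 and 11.3 percent at 1 week. At 2 weeks they were 7.95, 20, 20.7, 19.2 and 13 percent.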
